A study of Mus with 18 samples.

Results

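Transcripts of RAW264.7, a mouse cell line with macrophage traits, were compared after treatment with 1 of 2 materials, labelled PPLG-SA and POx-SA, that the series design describes as sialic polymers. The comparison takes 6 of the 18 libraries of the study. Of these, 3 came from cells given LPS and then PPLG-SA (LPS + PPLG-SA), and 3 from cells given LPS and then POx-SA (LPS + POx-SA). LPS is lipopolysaccharide, a surface molecule of Gram-negative bacteria, and both groups received it, so the groups differ, by their labels, in the polymer alone. The remaining 12 libraries, in 4 groups of 3, were cells given LPS and then PPLG-2V-SA or PPLG-4V-SA, cells given LPS alone and untreated cells, and they are used here for scale and for a shared estimate of the spread. The labels give no dose, duration, day of culture or meaning of the polymer codes, so it is not known whether the 2 polymers were used at matched doses and times. They also do not say whether the 3 libraries of a group were separate cultures. Every p-value therefore rests on a spread between libraries, estimated over all groups together, which may be technical.

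LPS is sensed by the receptor TLR4 with its partner CD14, and the signal runs through the adaptors MyD88 and TRIF to NF-κB, the AP-1 factors and the interferon regulatory factors. These switch on cytokines, chemokines and, through secreted interferon, the interferon-stimulated genes. The series title names Siglecs, lectins on immune cells that bind sialic acids, and many of them carry motifs that recruit the phosphatases SHP-1 and SHP-2. RAW264.7 cells also proliferate, so cell-cycle, lipid-synthesis and stress genes report on their state as well.

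Across 13482 tested genes, 3810 were called higher in LPS + PPLG-SA than in LPS + POx-SA and 3972 were called lower, by edgeR's quasi-likelihood test at a Benjamini-Hochberg adjusted p below 0.05. The called genes made up 57.7% of those tested, with 28.3% higher and 29.5% lower, and each count of a gene list is to be read against these shares. With a change of at least 2-fold the call held for 24.6% of tested genes, 1621 higher and 1695 lower, and for 58.7% the 3 values of one group did not overlap the 3 of the other. Of the 7782 called genes, 7253 did not overlap, so for a called gene a lack of overlap adds little to the call. Levels are given as CPM, a gene's counts scaled to a common TMM-adjusted library size, and a log2 fold change, PPLG-SA minus POx-SA, is followed by its SE. The median log2 fold change over all tested genes was -0.01 on this scale but 0.19 on plain library totals, where 4983 genes were higher and 2934 lower, and 0.12 on deposited FPKM plus 1, where 4992 were higher and 2745 lower. Every direction is therefore relative to the TMM scaling, and a log2 change smaller than about that shift depends on it. Single genes could move by more. On FPKM plus 1, Rps27 went from -0.59 to 0.42 and Ndufa1 from -0.89 to -0.36. Each library is bulk RNA, so fewer cells that express a gene and less of its RNA per cell cannot be told apart.

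The libraries held 13479878 to 15543642 counts in LPS + PPLG-SA and 13417940 to 16033361 in LPS + POx-SA, so depth did not separate the groups. The first principal component of log2 CPM, with 56.4% of the variance of the 18 libraries, put the 3 PPLG-SA libraries at 54.1 to 58.3 and the 3 POx-SA libraries at -51.3 to -43.6. Libraries of PPLG-2V-SA and PPLG-4V-SA lay on the side of PPLG-SA, and libraries of LPS alone and untreated cells on the side of POx-SA. The POx-SA libraries varied more: pairs of them had a chi-square per degree of freedom of 44.4 to 76.4, against 4.18 to 5.23 for pairs of PPLG-SA libraries. The tests share an estimate of the spread over all groups, so an SE or p-value can understate the spread of POx-SA libraries. With only the 6 libraries of the pair, 2947 genes were called higher and 3021 lower. POx-SA replicate 3 deviated from its group together with LPS replicate 3, with a correlation of 0.74 across genes, and without POx-SA replicate 3 the test called 3558 genes higher and 3869 lower. The share of counts from mitochondrially encoded genes was 3.64% to 4.24% in PPLG-SA libraries and 4.92% to 7.17% in POx-SA libraries.

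**Figure D1:**
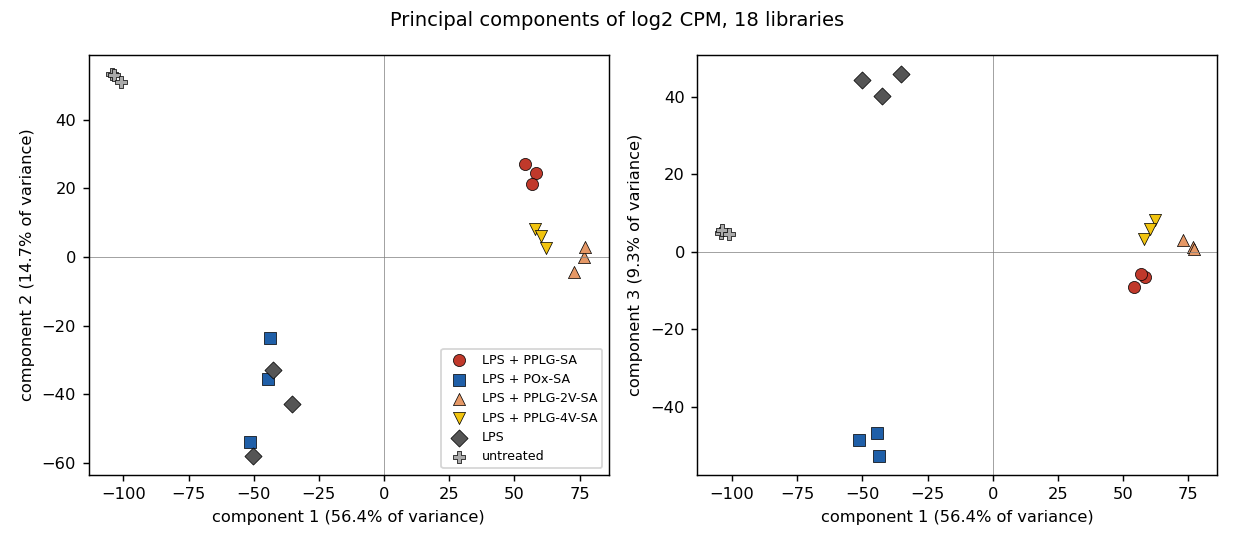
Principal components 1 and 2 (left) and 1 and 3 (right) of log2 CPM, 1 point per library and 3 libraries per group, with the percent of variance on each axis. The PPLG-SA and POx-SA libraries sit on opposite sides of component 1, at 54.1 to 58.3 and at -51.3 to -43.6, and component 3 sets POx-SA libraries apart from those of LPS alone.

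The lists of genes described next differ in how far they lean to one side. The interferon-stimulated genes, guanylate-binding proteins, mitosis, DNA replication and cholesterol genes were mostly higher in LPS + PPLG-SA. The NRF2 targets, mitochondrially encoded genes, proteasome subunits, autophagy genes and MAP kinase phosphatases were mostly lower. Cytokines, chemokines, Siglec-linked phosphatases and TLR regulators held members on both sides. Lists were tested neither as sets nor against each other, and members of a list are not independent of each other.

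**Figure D2:**
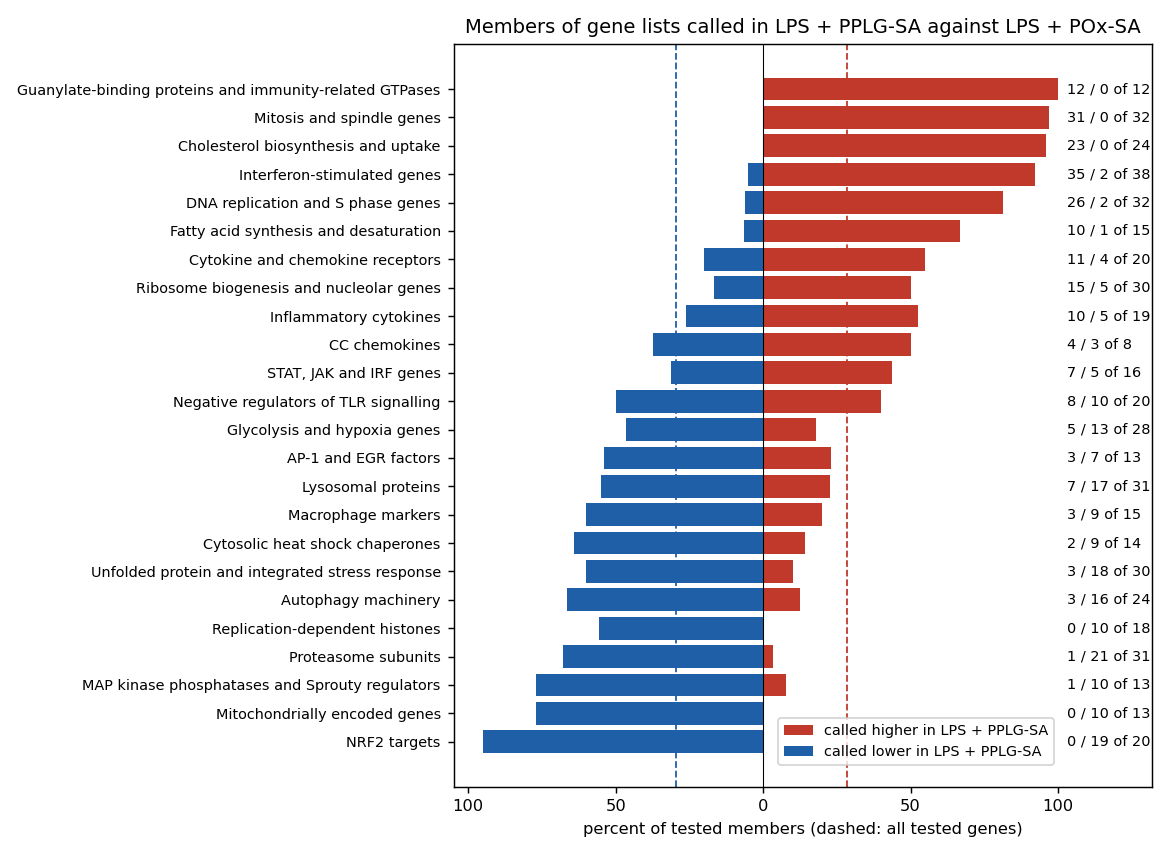
Percent of tested members of 24 gene lists called higher (red, right) or lower (blue, left) in LPS + PPLG-SA than in LPS + POx-SA, with the counts at the right, and the same shares over all tested genes as dashed lines (28.3% and 29.5%). The upper lists lean to higher and the lower lists to lower, from 12 of 12 guanylate-binding proteins and immunity-related GTPases higher to 19 of 20 NRF2 targets lower.

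Inflammatory cytokines went apart. Of 20 listed, 19 were tested, and 10 were higher in LPS + PPLG-SA, 5 lower and 4 not called (median log2 fold change 0.37). Il1b, which encodes the fever-inducing cytokine interleukin-1β, was at 134, 145 and 149 CPM in PPLG-SA libraries, against 16.3, 7.03 and 13.6 CPM in POx-SA libraries (log2 fold change 3.53 ± 0.22, adjusted p = 6.77e-10). Il6, the acute-phase cytokine, was at 45.8, 46.4 and 46.6 CPM in PPLG-SA libraries, against 9.73, 4.38 and 5.71 CPM in POx-SA libraries (log2 fold change 2.81 ± 0.23, adjusted p = 2.14e-08). Il1a stood at 40.7, 49.7 and 50.7 CPM in PPLG-SA libraries, against 8.54, 6.05 and 4.86 CPM in POx-SA libraries (log2 fold change 2.86 ± 0.20, adjusted p = 2.58e-09). In all 3 genes the lowest PPLG-SA library lay well above the highest POx-SA library, and the PPLG-SA levels also exceeded those of LPS alone, which were 17.6 ± 0.981 CPM for Il1b, 17.6 ± 4.55 CPM for Il6 and 11.9 ± 0.284 CPM for Il1a. Untreated cells had 19.5 ± 3.98 CPM of Il1b, so LPS alone did not differ from them by more than that spread.

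Tnf, the early cytokine of LPS-stimulated macrophages, moved the other way. It was at 307, 294 and 306 CPM in PPLG-SA libraries, against 752, 790.0 and 928 CPM in POx-SA libraries (log2 fold change -1.44 ± 0.12, adjusted p = 1.46e-08), a 2.72-fold lower level. LPS alone had 839 ± 138 CPM and untreated cells 323 ± 11.4 CPM, so the PPLG-SA libraries were near the untreated level and the POx-SA libraries near that of LPS alone. Osm, the interleukin-6-family cytokine oncostatin M, was at 21.1, 22.2 and 22.2 CPM in PPLG-SA libraries, against 89.0, 82.8 and 97.4 CPM in POx-SA libraries (log2 fold change -2.04 ± 0.11, adjusted p = 1.72e-10). For both genes the groups did not overlap.

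Further cytokine genes were higher in LPS + PPLG-SA. Il33, an alarmin, was at 49.5, 64.1 and 54.3 CPM in PPLG-SA libraries, against 6.31, 3.63 and 5.01 CPM in POx-SA libraries (log2 fold change 3.49 ± 0.19, adjusted p = 1.16e-10). Csf1, the macrophage growth factor whose receptor is Csf1r, was at 15.6, 16.7 and 16.6 CPM in PPLG-SA libraries, against 1.71, 0.831 and 1.27 CPM in POx-SA libraries (log2 fold change 3.67 ± 0.21, adjusted p = 2.38e-10). Il27 was at 15.9, 11.1 and 13.5 CPM in PPLG-SA libraries, against 2.45, 2.04 and 2.47 CPM in POx-SA libraries (log2 fold change 2.53 ± 0.19, adjusted p = 5.02e-09). These 3 did not overlap between groups, and neither did Tnfsf15, a TNF-family cytokine, at 8.67 ± 0.418 CPM in LPS + PPLG-SA and 0.147 ± 0.197 CPM in LPS + POx-SA (log2 fold change 5.81 ± 0.61, adjusted p = 3.93e-07).

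Some cytokine genes were near the floor of detection. Il12b, a subunit of interleukins 12 and 23, was at 0.0699, 0 and 0.243 CPM in PPLG-SA libraries, against 0.594, 0.0756 and 1.27 CPM in POx-SA libraries (log2 fold change -2.51 ± 0.86, adjusted p = 0.0190), with overlap between the groups. Without POx-SA replicate 3 its log2 fold change was -1.60 with an adjusted p of 0.167, and 7 of the 17 alternatives that tested it did not call it. Ifnb1, interferon β, was at 0.489, 0.388 and 0.122 CPM in PPLG-SA libraries, against 0.297, 0.227 and 1.34 CPM in POx-SA libraries, and was not called (log2 fold change -0.93 ± 0.62, 95% interval -2.24 to 0.38). At this depth a difference in Ifnb1 was not detectable.

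Chemokines, which draw leukocytes to a site, also split. Among CC chemokines 4 of 8 tested were higher, 3 lower and 1 not called, with 5 higher and 1 lower on FPKM. Ccl2, the monocyte attractant, was at 329.6, 305 and 344 CPM in PPLG-SA libraries, against 31.8, 25.7 and 38.1 CPM in POx-SA libraries (log2 fold change 3.35 ± 0.14, adjusted p = 5.87e-12). Ccl5, which attracts T cells, was at 174, 168 and 159.7 CPM in PPLG-SA libraries, against 19.6, 20.4 and 25.7 CPM in POx-SA libraries (log2 fold change 2.93 ± 0.15, adjusted p = 5.23e-11). Ccl22, a ligand of CCR4, was at 104, 111 and 115 CPM in PPLG-SA libraries, against 6.01, 2.95 and 5.78 CPM in POx-SA libraries (log2 fold change 4.48 ± 0.22, adjusted p = 3.32e-11). The PPLG-SA libraries lay above all others of the pair for these 3 genes, and Ccl9 was higher as well (log2 fold change 0.93 ± 0.15, adjusted p = 3.95e-05).

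The macrophage inflammatory proteins Ccl3 and Ccl4 and most CXC chemokines were lower in LPS + PPLG-SA. Ccl4 was at 506, 448 and 425 CPM in PPLG-SA libraries, against 1051, 1039.6 and 1164 CPM in POx-SA libraries (log2 fold change -1.24 ± 0.12, adjusted p = 9.80e-08). Ccl3 was at 3121, 2769 and 2699 CPM in PPLG-SA libraries, against 3868, 5885 and 6395 CPM in POx-SA libraries (log2 fold change -0.91 ± 0.16, adjusted p = 1.20e-04), and on FPKM it was not called (adjusted p = 0.0624 with a pseudocount of 1). The neutrophil attractant Cxcl2 was at 56.5, 58.5 and 58.5 CPM in PPLG-SA libraries, against 1003, 1015 and 1147 CPM in POx-SA libraries (log2 fold change -4.19 ± 0.14, adjusted p = 3.50e-13). None of these overlapped, and the Cxcl2 difference was 18.2-fold. LPS alone had 911 ± 162 CPM of Cxcl2 and untreated cells 2633 ± 119 CPM, both above the PPLG-SA libraries. A second attractant of neutrophils, Cxcl3, was 26.5-fold lower (log2 fold change -4.73 ± 0.22, adjusted p = 1.32e-11), while Cxcl10, an interferon-inducible attractant of T cells, was higher, with 20.8, 18.2 and 21.6 CPM in PPLG-SA libraries, against 3.42, 6.95 and 4.72 CPM in POx-SA libraries (log2 fold change 2.01 ± 0.23, adjusted p = 1.16e-06). Of the 5 CXC chemokines tested, 1 was higher, 3 were lower and 1 was not called. Ccl6 was the third CC chemokine called lower (log2 fold change -0.70 ± 0.28, adjusted p = 0.0435), but 14 of the 19 alternatives did not call it, those that left out POx-SA replicate 1 or 3 or any PPLG-SA replicate among them.

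**Figure D3:**
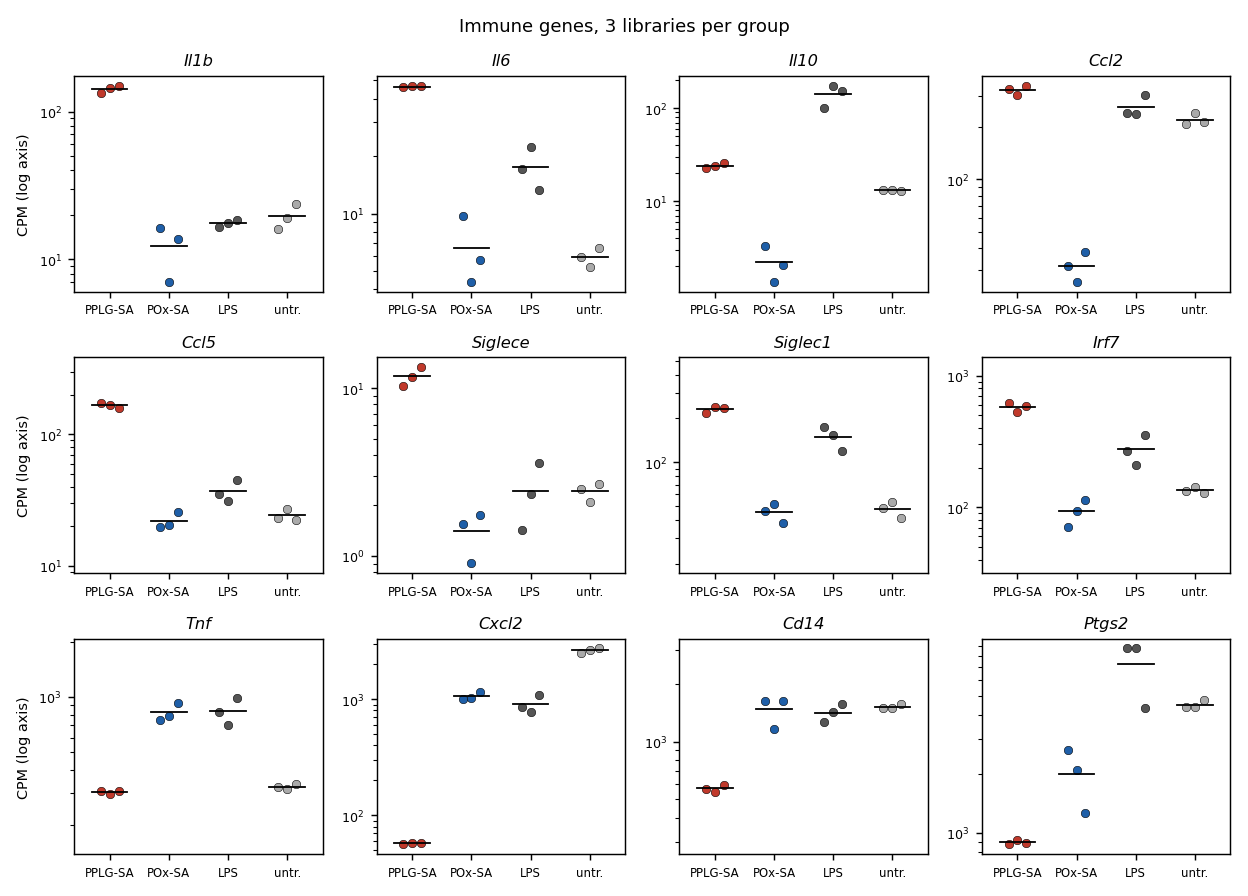
CPM on a log axis of 12 immune genes in LPS + PPLG-SA, LPS + POx-SA, LPS alone and untreated cells, 1 point per library and a bar at the mean of 3. PPLG-SA libraries lie above POx-SA libraries for the 8 genes of the upper 2 rows, and below them for Tnf, Cxcl2, Cd14 and Ptgs2.

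Il10, the main anti-inflammatory cytokine of macrophages, was at 22.8, 23.9 and 25.5 CPM in PPLG-SA libraries, against 3.34, 1.36 and 2.04 CPM in POx-SA libraries (log2 fold change 3.41 ± 0.23, adjusted p = 1.77e-09). Both groups lay below LPS alone, at 142 ± 37.2 CPM, and the PPLG-SA libraries above the untreated level of 13.1 ± 0.191 CPM. The receptor chain Il10ra was lower in LPS + PPLG-SA, with 16.5, 23.5 and 21.9 CPM in PPLG-SA libraries, against 81.6, 41.6 and 58.2 CPM in POx-SA libraries (log2 fold change -1.55 ± 0.18, adjusted p = 1.08e-06). The shared chain Il10rb was not called (log2 fold change -0.05 ± 0.10, 95% interval -0.25 to 0.16). In the TGF-β branch, Tgfbr1 was higher (log2 fold change 1.13 ± 0.18, adjusted p = 3.85e-05) and Tgfbr2 lower (log2 fold change -1.01 ± 0.10, adjusted p = 1.14e-07), which are the 2 receptor chains that bind TGF-β together, and the ligand gene Tgfb1 was not called (log2 fold change 0.10 ± 0.11, 95% interval -0.14 to 0.34).

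Receptors for cytokines and chemokines were more often higher, with 11 of 20 tested members higher, 4 lower and 5 not called. Tnfrsf1b, the second receptor of TNF, was at 495, 501 and 516 CPM in PPLG-SA libraries, against 121, 89.3 and 115 CPM in POx-SA libraries (log2 fold change 2.21 ± 0.12, adjusted p = 7.24e-11). The receptor of interleukin-33, Il1rl1, was at 83.1, 94.1 and 88.7 CPM in PPLG-SA libraries, against 18.0, 8.69 and 8.60 CPM in POx-SA libraries (log2 fold change 2.91 ± 0.22, adjusted p = 7.57e-09). Its co-receptor Il1rap, shared with the interleukin-1 receptor, was 3.30-fold higher (log2 fold change 1.72 ± 0.18, adjusted p = 3.05e-07). The ligand Il33 and both of its receptor chains thus lay on the same side, with no overlap between groups. On the lower side were Csf2ra, the α chain of the GM-CSF receptor (log2 fold change -2.06 ± 0.15, adjusted p = 2.89e-09), and Csf1r, the receptor of the CSF1 that was higher, with 294, 297 and 292 CPM in PPLG-SA libraries, against 448, 542 and 508 CPM in POx-SA libraries (log2 fold change -0.76 ± 0.09, adjusted p = 1.02e-06).

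Of 9 Siglec genes listed, 4 passed the filter on low counts, and 3 of these were higher in LPS + PPLG-SA. Siglece, an inhibitory Siglec of mouse myeloid cells, was at 10.3, 11.6 and 13.3 CPM in PPLG-SA libraries, against 1.56, 0.907 and 1.76 CPM in POx-SA libraries (log2 fold change 3.05 ± 0.25, adjusted p = 2.08e-08). Siglec1, the sialoadhesin of macrophages and a known interferon-inducible gene, was at 216, 239.8 and 236 CPM in PPLG-SA libraries, against 46.3, 51.3 and 37.9 CPM in POx-SA libraries (log2 fold change 2.35 ± 0.14, adjusted p = 2.98e-10). Both differences exceeded the spread, and LPS alone had 2.45 ± 1.09 CPM of Siglece and 149 ± 28.1 CPM of Siglec1, levels under those of PPLG-SA. Cd33 was not called, with 111, 114 and 115 CPM in PPLG-SA libraries, against 96.0, 163 and 97.4 CPM in POx-SA libraries (log2 fold change -0.07 ± 0.16, 95% interval -0.40 to 0.26). The groups overlapped for Cd33, and both lay above LPS alone at 17.8 ± 2.56 CPM. Mag, a Siglec best known from myelin, was low, at 4.33, 2.46 and 2.31 CPM in PPLG-SA libraries, against 0.668, 0.831 and 1.13 CPM in POx-SA libraries (log2 fold change 1.77 ± 0.38, adjusted p = 6.21e-04), and voom with sample quality weights did not call it (adjusted p = 0.0731). Siglecg had 0 counts in all 18 libraries.

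The phosphatases, kinases and adaptors that act with Siglecs split evenly, 5 higher and 5 lower of 10 tested, all of them called. Ptpn6, which encodes SHP-1, was at 359.6, 354 and 389 CPM in PPLG-SA libraries, against 215, 213 and 279 CPM in POx-SA libraries (log2 fold change 0.64 ± 0.12, adjusted p = 2.52e-04). Ptpn11, which encodes SHP-2, was higher by a smaller amount (log2 fold change 0.35 ± 0.09, adjusted p = 0.00355). The Src-family kinases Fgr (log2 fold change 2.34 ± 0.16, adjusted p = 1.72e-09) and Lyn (log2 fold change 0.32 ± 0.07, adjusted p = 0.00147) were higher too. On the other side were Syk, the kinase of activating receptors, with 183, 193 and 168 CPM in PPLG-SA libraries, against 354, 315 and 314 CPM in POx-SA libraries (log2 fold change -0.85 ± 0.09, adjusted p = 4.04e-07), and Csk, which restrains Src kinases (log2 fold change -0.95 ± 0.11, adjusted p = 1.43e-06). The activating adaptors Tyrobp (log2 fold change -0.57 ± 0.13, adjusted p = 0.00133) and Hcst (log2 fold change -1.35 ± 0.31, adjusted p = 0.00136) were lower as well, as was Inpp5d, the lipid phosphatase SHIP-1 (log2 fold change -0.39 ± 0.10, adjusted p = 0.00265). The calls of Lyn, Ptpn11 and Inpp5d were lost in a fit of the 6 libraries with a replicate block (adjusted p = 0.132, 0.0796 and 0.0551), and that of Tyrobp on FPKM (adjusted p = 0.393 with a pseudocount of 1).

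Genes that make, move and cut sialic acids were called on both sides. Of 12 tested, 4 were higher and 5 lower, and without POx-SA replicate 3 the count of lower ones was 3, and on plain totals and on FPKM more were higher than lower. Npl, which breaks down free sialic acid, was at 23.3, 24.6 and 24.4 CPM in PPLG-SA libraries, against 1.26, 1.89 and 3.10 CPM in POx-SA libraries (log2 fold change 3.52 ± 0.25, adjusted p = 2.60e-09). Slc35a1, the carrier of CMP-sialic acid into the Golgi, was 2.44-fold higher (log2 fold change 1.29 ± 0.11, adjusted p = 4.51e-08). The lysosomal sialidase Neu1 was at 116, 111 and 125 CPM in PPLG-SA libraries, against 209, 217 and 229 CPM in POx-SA libraries (log2 fold change -0.89 ± 0.11, adjusted p = 1.85e-06). All 3 genes had groups that did not overlap. Among sialyltransferases, 5 of 12 tested were higher and 4 lower, a balance that turned without POx-SA replicate 1 and with no filter on low counts, and 2 were lower on plain totals. St6gal1, the enzyme that adds α2,6-linked sialic acid to N-glycans, had 1 count over the PPLG-SA libraries and 307 over the POx-SA libraries, 347-fold lower (95% counting interval 61.8 to 13757) in LPS + PPLG-SA. LPS alone had 13.2 ± 1.36 CPM of St6gal1 and untreated cells 7.38 ± 1.44 CPM. St3gal4 (log2 fold change 0.79 ± 0.14, adjusted p = 8.77e-05) and St3gal3 (log2 fold change 0.79 ± 0.14, adjusted p = 1.28e-04), which add α2,3-linked sialic acid, were higher, and St6galnac6 was lower (log2 fold change -0.69 ± 0.12, adjusted p = 7.85e-05).

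In the LPS receptor complex, Cd14, which hands LPS to TLR4, was at 569, 548 and 596 CPM in PPLG-SA libraries, against 1619.6, 1162 and 1625 CPM in POx-SA libraries (log2 fold change -1.36 ± 0.13, adjusted p = 7.96e-08). Tlr4 itself was not called, with 31.7, 43.0 and 34.6 CPM in PPLG-SA libraries, against 56.3, 48.3 and 26.2 CPM in POx-SA libraries (log2 fold change -0.26 ± 0.25, 95% interval -0.79 to 0.27). Of the 21 genes of this list tested, 5 were higher and 5 lower, with 8 lower when POx-SA replicate 3 was left out. On plain totals 7 were higher and 4 lower, on FPKM 7 and 3. The share called, 47.6%, was under the 57.7% of all tested genes. The members named next are therefore not read as a difference between branches of the pathway. Irf7, the master factor of type I interferon genes, was at 616, 532 and 584 CPM in PPLG-SA libraries, against 70.6, 94.1 and 113 CPM in POx-SA libraries (log2 fold change 2.64 ± 0.18, adjusted p = 1.85e-09). The kinase Ikbke was at 164, 154 and 147 CPM in PPLG-SA libraries, against 53.5, 32.3 and 39.3 CPM in POx-SA libraries (log2 fold change 1.90 ± 0.14, adjusted p = 6.21e-09). Ticam2, the adaptor that links TLR4 to TRIF, was also higher (log2 fold change 0.84 ± 0.13, adjusted p = 2.37e-05), while Myd88 (log2 fold change -0.57 ± 0.12, adjusted p = 6.43e-04) and Traf6 (log2 fold change -0.71 ± 0.15, adjusted p = 5.99e-04) were lower.

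NF-κB genes were called on both sides, 4 of 14 higher and 5 lower. The share called, 64.3%, was near the 57.7% of all tested genes. Against a fold of 1.5 the counts were 3 higher and 1 lower. The genes named here are therefore not read as a result about the list. Nfkb1, the precursor of the p50 subunit, was at 301, 307 and 324 CPM in PPLG-SA libraries, against 143, 135 and 126 CPM in POx-SA libraries (log2 fold change 1.20 ± 0.09, adjusted p = 2.96e-09). Nfkb2, the precursor of p52, was higher too (log2 fold change 1.30 ± 0.08, adjusted p = 8.65e-10), and Rela, the p65 subunit, was lower (log2 fold change -0.65 ± 0.11, adjusted p = 8.39e-05). Nfkbia, which encodes the inhibitor IκBα, was not called, with 262, 236 and 248 CPM in PPLG-SA libraries, against 318, 236 and 279 CPM in POx-SA libraries (95% interval of the log2 fold change -0.38 to 0.07). Both polymer groups lay far below the 1066 ± 86.8 CPM of Nfkbia in LPS alone. Nfkbid, a nuclear IκB protein, was lower, with 18.4, 19.1 and 17.9 CPM in PPLG-SA libraries, against 65.2, 89.2 and 82.4 CPM in POx-SA libraries (log2 fold change -2.09 ± 0.12, adjusted p = 3.03e-10).

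Negative regulators of TLR signalling were called in 8 higher and 10 lower of 20 tested, and on plain totals and on FPKM more were higher than lower. Tnfaip3, the ubiquitin-editing protein A20, was at 78.6, 77.4 and 79.2 CPM in PPLG-SA libraries, against 31.03, 30.9 and 29.05 CPM in POx-SA libraries (log2 fold change 1.37 ± 0.14, adjusted p = 2.72e-07). Usp18, which dampens interferon signalling, was 3.55-fold higher (log2 fold change 1.83 ± 0.11, adjusted p = 6.05e-10). Zfp36, which destabilises cytokine mRNAs such as that of Tnf, was at 319.6, 323 and 309.7 CPM in PPLG-SA libraries, against 1108, 785 and 919 CPM in POx-SA libraries (log2 fold change -1.56 ± 0.11, adjusted p = 2.78e-09). A second mRNA decay factor, Zc3h12a, was lower (log2 fold change -1.75 ± 0.14, adjusted p = 1.19e-08). Socs3, the inhibitor of interleukin-6-family signals, was at 160.2, 178 and 175 CPM in PPLG-SA libraries, against 380.3, 308 and 354 CPM in POx-SA libraries (log2 fold change -1.02 ± 0.10, adjusted p = 1.13e-07). No overlap was seen in these 5 genes, and the Socs3 level of LPS alone, 2825 ± 80.5 CPM, was above both groups.

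The AP-1 factors, which LPS activates through MAP kinases, were mostly lower, 7 of 13 tested against 3 higher, or 2 higher when any replicate other than POx-SA replicate 1 was left out. Jun was at 74.0, 61.3 and 63.5 CPM in PPLG-SA libraries, against 261, 196 and 210.3 CPM in POx-SA libraries (log2 fold change -1.75 ± 0.14, adjusted p = 8.51e-09). Fosl2 was at 40.7, 47.5 and 49.9 CPM in PPLG-SA libraries, against 242, 213 and 181 CPM in POx-SA libraries (log2 fold change -2.20 ± 0.13, adjusted p = 1.97e-10). Junb (log2 fold change -1.48 ± 0.13, adjusted p = 6.02e-08), Jund (log2 fold change -1.74 ± 0.12, adjusted p = 2.48e-09), Fosl1 (log2 fold change -1.73 ± 0.20, adjusted p = 1.53e-06) and the early-response gene Ier3 (log2 fold change -2.26 ± 0.12, adjusted p = 6.96e-11) were lower too, with no overlap between groups. The MAP kinase phosphatases and Sprouty proteins, which restrain the same kinases, had 10 of 13 lower and 1 higher, or 2 higher on plain totals and on FPKM. Dusp4 was at 338, 301 and 335 CPM in PPLG-SA libraries, against 635, 1076 and 935 CPM in POx-SA libraries (log2 fold change -1.44 ± 0.14, adjusted p = 1.11e-07). Dusp2 (log2 fold change -1.27 ± 0.13, adjusted p = 1.72e-07), Dusp1 (log2 fold change -0.76 ± 0.13, adjusted p = 1.12e-04) and Dusp8 (log2 fold change -1.19 ± 0.13, adjusted p = 7.78e-07) were lower. The 2 Sprouty genes of the largest differences went opposite ways. Spry2 had 0 counts over the PPLG-SA libraries and 373 over the POx-SA libraries, at least 141-fold lower, and Spry4 was at 12.9, 15.5 and 13.9 CPM in PPLG-SA libraries, against 0.445, 0.227 and 0.141 CPM in POx-SA libraries (log2 fold change 5.67 ± 0.30, adjusted p = 8.35e-11).

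Interferon-stimulated genes leaned to one side. Of 38 tested, 35 were higher in LPS + PPLG-SA, 2 lower (1 on FPKM) and 1 not called, with a median log2 fold change of 1.61. Against LPS alone, a group that both comparisons share, the same members had medians of 0.57 in LPS + PPLG-SA and -1.16 in LPS + POx-SA. Oas3, a sensor of double-stranded RNA, was at 437, 416 and 452 CPM in PPLG-SA libraries, against 88.6, 92.3 and 87.4 CPM in POx-SA libraries (log2 fold change 2.28 ± 0.08, adjusted p = 8.65e-13). Ifi44 was at 221, 234 and 235 CPM in PPLG-SA libraries, against 33.7, 31.1 and 29.5 CPM in POx-SA libraries (log2 fold change 2.87 ± 0.11, adjusted p = 1.75e-12). Oasl2 was at 33.0, 31.6 and 34.6 CPM in PPLG-SA libraries, against 1.78, 0.605 and 1.06 CPM in POx-SA libraries (log2 fold change 4.84 ± 0.20, adjusted p = 4.85e-12). Each of these 3 was higher in every PPLG-SA library than in any POx-SA library. Dhx58, a regulator of the RNA sensor RIG-I (log2 fold change 2.27 ± 0.10, adjusted p = 9.31e-12), Oas2 (log2 fold change 2.58 ± 0.11, adjusted p = 4.13e-12) and Zbp1, a sensor of Z-form nucleic acids (log2 fold change 3.66 ± 0.17, adjusted p = 1.69e-11), were higher as well.

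Guanylate-binding proteins and immunity-related GTPases, which attack vacuoles of intracellular microbes, were higher in all 12 tested of 14 listed, with a median log2 fold change of 3.64. Gbp3 was at 44.8, 43.6 and 47.2 CPM in PPLG-SA libraries, against 2.23, 2.95 and 3.38 CPM in POx-SA libraries (log2 fold change 3.98 ± 0.17, adjusted p = 6.66e-12). Gbp5, which promotes inflammasome activity, was at 11.6, 12.9 and 11.6 CPM in PPLG-SA libraries, against 0.371, 0.831 and 0.353 CPM in POx-SA libraries (log2 fold change 4.52 ± 0.25, adjusted p = 1.78e-10). Gbp7 was at 30.2, 40.8 and 35.6 CPM in PPLG-SA libraries, against 1.78, 1.74 and 0.564 CPM in POx-SA libraries (log2 fold change 4.71 ± 0.33, adjusted p = 2.12e-09). No library overlapped, and POx-SA levels were also under those of LPS alone, at 9.48 ± 1.69 CPM for Gbp3 and 2.03 ± 0.223 CPM for Gbp5. Reads of the Gbp, Oas and other families with close copies may be shared between members, because the counting rule is not given in the sources used here.

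Transcription factors of interferon signalling were 7 higher and 5 lower of 16 tested, with 3 lower without PPLG-SA replicate 1 and 2 lower on plain totals and on FPKM. Stat2 (log2 fold change 0.89 ± 0.10, adjusted p = 1.11e-06) and Irf9 (log2 fold change 0.62 ± 0.12, adjusted p = 3.44e-04), of the type I interferon complex, were higher. Jak2 was higher (log2 fold change 0.85 ± 0.15, adjusted p = 8.45e-05), and Tyk2, another kinase of interferon receptors, was lower (log2 fold change -0.61 ± 0.10, adjusted p = 4.01e-05). Irf4, a factor of alternative activation, was at 11.5, 10.5 and 11.2 CPM in PPLG-SA libraries, against 4.45, 2.80 and 2.89 CPM in POx-SA libraries (log2 fold change 1.71 ± 0.21, adjusted p = 2.56e-06).

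MHC class I genes were 7 higher and 1 lower of 18, with 3 lower without POx-SA replicate 1 and 12 higher on plain totals and on FPKM. The other 10 were not called, and the median log2 fold change was 0.24. The share called, 44.4%, was under the 57.7% of all tested genes. Psmb9, a subunit of the immunoproteasome, was at 19.3, 17.7 and 18.1 CPM in PPLG-SA libraries, against 4.08, 2.80 and 7.40 CPM in POx-SA libraries (log2 fold change 1.94 ± 0.25, adjusted p = 4.21e-06). Tap1, the peptide pump of class I loading, was higher (log2 fold change 0.91 ± 0.13, adjusted p = 1.27e-05), as was Tapbp (log2 fold change 0.84 ± 0.09, adjusted p = 7.35e-07). Class II genes were low in all libraries of the pair apart from Cd74 and Ctss. H2-Eb1 was at 5.52, 4.14 and 5.71 CPM in PPLG-SA libraries, against 0.445, 0.454 and 0.423 CPM in POx-SA libraries (log2 fold change 3.52 ± 0.38, adjusted p = 5.74e-07). H2-Ab1 was at 2.52, 2.52 and 3.10 CPM in PPLG-SA libraries, against 0.0742, 0.302 and 0.141 CPM in POx-SA libraries (log2 fold change 3.92 ± 0.50, adjusted p = 3.94e-06), and H2-Aa had 24 counts over the PPLG-SA libraries and 0 over the POx-SA libraries, at least 7.07-fold higher. Cd74, the invariant chain, went the other way (log2 fold change -0.75 ± 0.20, adjusted p = 0.00444), a call lost on FPKM (adjusted p = 0.0561 with a pseudocount of 1).

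Effectors of classical activation were divided, 9 of 17 higher and 6 lower. Nos2, the inducible nitric oxide synthase, was at 258, 291 and 266 CPM in PPLG-SA libraries, against 416, 708 and 554 CPM in POx-SA libraries (log2 fold change -1.04 ± 0.14, adjusted p = 7.85e-06). Ptgs2, the inducible cyclooxygenase, was at 875, 923 and 889 CPM in PPLG-SA libraries, against 2657, 2094 and 1264 CPM in POx-SA libraries (log2 fold change -1.16 ± 0.23, adjusted p = 3.91e-04). The groups did not overlap for either, and both groups lay below LPS alone, which had 1254 ± 102 CPM of Nos2 and 7247 ± 2535 CPM of Ptgs2. Cfb, complement factor B, was at 30.7, 27.4 and 28.7 CPM in PPLG-SA libraries, against 0.817, 1.89 and 2.04 CPM in POx-SA libraries (log2 fold change 4.18 ± 0.26, adjusted p = 6.57e-10), and C3, the central complement protein, was 10.0-fold higher (log2 fold change 3.33 ± 0.16, adjusted p = 1.69e-11). Hdc, which makes histamine, was at 49.1, 50.0 and 53.7 CPM in PPLG-SA libraries, against 1.11, 0.680 and 0.353 CPM in POx-SA libraries (log2 fold change 6.15 ± 0.24, adjusted p = 1.73e-12). Lcn2, which binds bacterial iron carriers, was at 174, 146 and 162 CPM in PPLG-SA libraries, against 52.6, 45.7 and 61.3 CPM in POx-SA libraries (log2 fold change 1.59 ± 0.12, adjusted p = 9.20e-09). For these 4 the PPLG-SA libraries were the higher ones, whereas Slpi, an inhibitor of neutrophil proteases, was at 15.4, 13.7 and 13.7 CPM in PPLG-SA libraries, against 555, 666 and 941 CPM in POx-SA libraries (log2 fold change -5.66 ± 0.27, adjusted p = 2.11e-11).

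Alternative activation markers were near the floor. Arg1 had 0 counts over the PPLG-SA libraries and 5 over the POx-SA libraries, and Mrc1 was not called, with 0, 0.194 and 0.182 CPM in PPLG-SA libraries, against 0.0742, 0.151 and 0.0705 CPM in POx-SA libraries. The Arg1 call (adjusted p = 0.0339) was lost in 7 of the 17 alternatives that tested it, and a difference in either gene was not measured with useful precision at these counts. Clec10a, a lectin of such cells, was at 0.978, 1.03 and 0.669 CPM in PPLG-SA libraries, against 3.56, 2.19 and 5.22 CPM in POx-SA libraries (log2 fold change -2.03 ± 0.43, adjusted p = 5.84e-04). Of 16 listed genes 6 were tested, 1 higher, 2 lower and 3 not called, with 3 lower without POx-SA replicate 3 and 1 lower on FPKM plus 1 and without POx-SA replicate 2 or any PPLG-SA replicate.

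Surface receptors for complement, antibody and debris held 10 higher and 6 lower of 21 tested, with 4 lower when PPLG-SA replicate 2 or 3 was left out. Axl, a receptor for apoptotic cells, was at 45.6, 47.3 and 42.8 CPM in PPLG-SA libraries, against 1.04, 1.51 and 1.13 CPM in POx-SA libraries (log2 fold change 5.20 ± 0.16, adjusted p = 1.58e-13). Fcgr1, the high-affinity IgG receptor, was at 160.2, 138 and 156 CPM in PPLG-SA libraries, against 18.9, 15.0 and 27.9 CPM in POx-SA libraries (log2 fold change 2.88 ± 0.19, adjusted p = 9.34e-10). C5ar1, the receptor of the complement fragment C5a, was at 8.11, 5.62 and 6.14 CPM in PPLG-SA libraries, against 49.9, 26.5 and 39.6 CPM in POx-SA libraries (log2 fold change -2.55 ± 0.21, adjusted p = 1.86e-08). The first 2 were higher and the third lower in every PPLG-SA library. Itgam, the integrin CD11b, was higher (log2 fold change 1.26 ± 0.10, adjusted p = 1.79e-08), and the lectin receptor Clec4d was lower (log2 fold change -1.74 ± 0.15, adjusted p = 4.83e-08).

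In the inflammasome list, P2rx7, the ATP-gated channel that triggers NLRP3, had the smallest p of the genes named here. It was at 15.4, 15.5 and 13.6 CPM in PPLG-SA libraries, against 863, 806 and 789 CPM in POx-SA libraries (log2 fold change -5.79 ± 0.11, adjusted p = 8.43e-17), 55.3-fold lower, and LPS alone had 476 ± 16.1 CPM. Ninj1, which ruptures the membrane at the end of pyroptosis, was at 30.6, 26.2 and 28.99 CPM in PPLG-SA libraries, against 142, 200.5 and 219 CPM in POx-SA libraries (log2 fold change -2.71 ± 0.18, adjusted p = 9.45e-10). Casp1, the protease that matures interleukin-1β, was lower (log2 fold change -0.99 ± 0.13, adjusted p = 4.46e-06), while Gsdmd, the pore-forming protein, was higher (log2 fold change 0.65 ± 0.12, adjusted p = 1.36e-04). Over the list 5 of 13 were higher and 4 lower, with 3 higher when POx-SA replicate 2 or 3 was left out, which turned its balance. Subunits of the phagocyte NADPH oxidase, which makes superoxide, were 2 higher and 4 lower of 7, with 1 higher when any replicate other than PPLG-SA replicate 2 was left out. Cyba was lower (log2 fold change -1.20 ± 0.21, adjusted p = 8.49e-05). The catalytic subunit Cybb was higher (log2 fold change 0.52 ± 0.16, adjusted p = 0.00904), a call lost without POx-SA replicate 3 (log2 fold change 0.34, adjusted p = 0.0708).

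Cholesterol synthesis and uptake genes, most of them targets of the factor SREBP2, were higher as a list. Of 24 tested, 23 were higher in LPS + PPLG-SA and 0 lower, with a median log2 fold change of 1.61. Against LPS alone their medians were 1.54 in LPS + PPLG-SA and -0.14 in LPS + POx-SA. Idi1, an isomerase of the isoprenoid branch, was at 84.5, 88.3 and 101 CPM in PPLG-SA libraries, against 11.3, 17.5 and 11.4 CPM in POx-SA libraries (log2 fold change 2.77 ± 0.17, adjusted p = 5.13e-10). Fdft1, squalene synthase, was at 133, 119.8 and 122 CPM in PPLG-SA libraries, against 23.9, 31.97 and 32.9 CPM in POx-SA libraries (log2 fold change 2.08 ± 0.12, adjusted p = 3.38e-10). The groups did not overlap, and Cyp51 (log2 fold change 2.24 ± 0.15, adjusted p = 1.36e-09), Acat2 (log2 fold change 2.27 ± 0.14, adjusted p = 6.45e-10) and Lss (log2 fold change 1.62 ± 0.09, adjusted p = 2.09e-10), further enzymes of the pathway, were higher too.

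Fatty acid synthesis and desaturation genes were higher in 10 of 15 and lower in 1, or in 2 without any 1 of the POx-SA replicates. Scd1, a desaturase that makes oleic acid, was at 137, 147 and 153 CPM in PPLG-SA libraries, against 1.04, 4.23 and 2.26 CPM in POx-SA libraries (log2 fold change 5.86 ± 0.28, adjusted p = 2.22e-11). Its relative Scd2 was at 985, 1111 and 1096 CPM in PPLG-SA libraries, against 91.2, 161 and 119 CPM in POx-SA libraries (log2 fold change 3.10 ± 0.16, adjusted p = 8.16e-11). Fads2 (log2 fold change 2.13 ± 0.13, adjusted p = 6.41e-10) and Fads1 (log2 fold change 1.31 ± 0.09, adjusted p = 2.47e-09), desaturases of polyunsaturated fatty acids, were higher, as were Acaca, the first committed enzyme of the pathway (log2 fold change 1.76 ± 0.14, adjusted p = 1.09e-08), and Acly, which supplies its acetyl-CoA (log2 fold change 0.92 ± 0.10, adjusted p = 3.81e-07). Targets of the sterol receptor LXR were mixed, 4 of 10 higher and 3 lower. Abca1, the main cholesterol exporter, was not called, with 4.54, 3.88 and 3.16 CPM in PPLG-SA libraries, against 4.08, 3.63 and 1.97 CPM in POx-SA libraries (95% interval of the log2 fold change -0.50 to 1.01). Abcg1 was higher (log2 fold change 0.69 ± 0.14, adjusted p = 3.62e-04), and Mylip, which degrades the LDL receptor, was higher (log2 fold change 1.70 ± 0.18, adjusted p = 4.69e-07), whereas Apoe was lower, with 3.14, 2.20 and 2.61 CPM in PPLG-SA libraries, against 8.91, 11.2 and 15.2 CPM in POx-SA libraries (log2 fold change -2.15 ± 0.21, adjusted p = 1.36e-07).

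**Figure D4:**
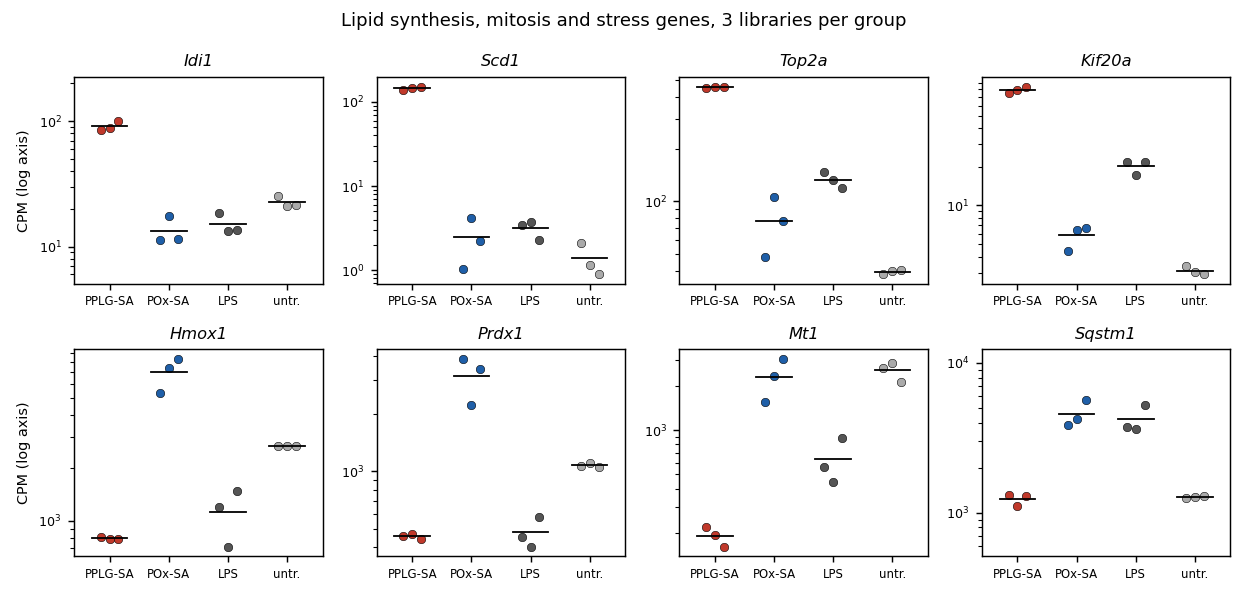
CPM on a log axis of 8 genes of lipid synthesis, mitosis and stress in LPS + PPLG-SA, LPS + POx-SA, LPS alone and untreated cells, 1 point per library and a bar at the mean of 3. In the upper row PPLG-SA libraries lie above all other groups shown, and in the lower row below those of POx-SA, at 785 to 807 CPM against 5278 to 8298 CPM for Hmox1.

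Mitosis and spindle genes were higher in 31 of 32 tested and lower in 0, with a median log2 fold change of 1.51. Against LPS alone the medians were 1.01 in LPS + PPLG-SA and -0.78 in LPS + POx-SA. Kif20a, a kinesin of cytokinesis, was at 75.5, 79.3 and 84.4 CPM in PPLG-SA libraries, against 4.45, 6.42 and 6.63 CPM in POx-SA libraries (log2 fold change 3.77 ± 0.14, adjusted p = 1.10e-12). Top2a, which untangles chromosomes, was at 448, 458 and 459 CPM in PPLG-SA libraries, against 48.0, 106 and 77.6 CPM in POx-SA libraries (log2 fold change 2.56 ± 0.19, adjusted p = 4.09e-09). Ccna2, cyclin A2, was at 105, 116 and 116 CPM in PPLG-SA libraries, against 9.87, 16.3 and 16.1 CPM in POx-SA libraries (log2 fold change 2.99 ± 0.15, adjusted p = 5.21e-11). In each the PPLG-SA libraries lay well apart from the POx-SA libraries, and Kif2c (log2 fold change 3.15 ± 0.12, adjusted p = 2.07e-12), Ccnb2 (log2 fold change 3.27 ± 0.22, adjusted p = 1.29e-09) and the kinase gene Plk1 (log2 fold change 2.27 ± 0.13, adjusted p = 1.68e-10) were alike.

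DNA replication and S phase genes were higher in 26 of 32 and lower in 2 (median 1.00), or in 1 on plain totals or when any replicate other than POx-SA replicate 1 was left out, and in 0 on FPKM. Uhrf1, which carries DNA methylation through replication, was at 130.4, 128 and 145 CPM in PPLG-SA libraries, against 24.1, 37.3 and 31.8 CPM in POx-SA libraries (log2 fold change 2.11 ± 0.13, adjusted p = 3.38e-10). Rrm1 (log2 fold change 1.80 ± 0.14, adjusted p = 1.20e-08) and Rrm2 (log2 fold change 1.51 ± 0.10, adjusted p = 1.13e-09), the subunits of ribonucleotide reductase, were higher, and so were the helicase gene Mcm7 (log2 fold change 1.29 ± 0.12, adjusted p = 1.27e-07), Mcm10 (log2 fold change 1.31 ± 0.12, adjusted p = 1.10e-07) and Tyms, thymidylate synthase (log2 fold change 1.01 ± 0.10, adjusted p = 1.29e-07). Replication-dependent histones did not follow: 0 of 18 were higher and 10 lower, and their transcripts, which normally lack poly(A) tails, are caught to a degree that the library method sets. H1f2 was at 7.90, 8.28 and 8.39 CPM in PPLG-SA libraries, against 78.5, 40.5 and 41.4 CPM in POx-SA libraries (log2 fold change -2.71 ± 0.22, adjusted p = 1.77e-08). H2bc4 was at 7.55, 6.66 and 5.59 CPM in PPLG-SA libraries, against 74.5, 84.7 and 87.1 CPM in POx-SA libraries (log2 fold change -3.64 ± 0.27, adjusted p = 4.49e-09). Untreated cells had 499 ± 20.4 CPM of H1f2 and 512 ± 12.6 CPM of H2bc4, far above both groups.

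At the G1 control point, Ccnd2, cyclin D2, was at 98.2, 109.9 and 93.6 CPM in PPLG-SA libraries, against 22.6, 23.4 and 14.0 CPM in POx-SA libraries (log2 fold change 2.33 ± 0.18, adjusted p = 7.02e-09). Myc was at 38.3, 32.4 and 36.1 CPM in PPLG-SA libraries, against 10.8, 9.45 and 7.68 CPM in POx-SA libraries (log2 fold change 1.93 ± 0.13, adjusted p = 2.13e-09). The inhibitor genes Cdkn1a, p21 (log2 fold change -0.74 ± 0.17, adjusted p = 9.89e-04), and Cdkn1b, p27 (log2 fold change -0.77 ± 0.19, adjusted p = 0.00187), were lower. Rb1, the retinoblastoma gene, which also restrains this point, was higher (log2 fold change 1.03), so restraining genes lay on both sides. The list held 5 higher and 3 lower of 15, or 2 lower without PPLG-SA replicate 1 or 2. On plain totals and on FPKM it held 8 higher and 2 lower. Of p53 targets 5 of 12 were higher and 3 lower, or 2 lower without POx-SA replicate 1 and 8 higher and 2 lower on FPKM, with the death receptor gene Fas higher (log2 fold change 1.73 ± 0.16, adjusted p = 9.95e-08) and Btg2 lower (log2 fold change -1.58 ± 0.14, adjusted p = 4.57e-08). Among BCL2-family and apoptosis genes, 7 of 18 were higher and 3 lower, with 5 lower without POx-SA replicate 1. Mcl1, a survival protein, was at 406, 413 and 411 CPM in PPLG-SA libraries, against 1139, 1218 and 1220.0 CPM in POx-SA libraries (log2 fold change -1.54 ± 0.09, adjusted p = 4.27e-10). Bcl2l11, the death-promoting protein BIM, was lower too (log2 fold change -0.96 ± 0.09, adjusted p = 1.71e-07).

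NRF2 targets, the antioxidant and detoxification genes, were lower in 19 of 20 tested and higher in 0, or in 1 on plain totals and on FPKM, with a median log2 fold change of -1.52. Against LPS alone the medians were -0.29 in LPS + PPLG-SA and 1.06 in LPS + POx-SA. Hmox1, haem oxygenase, was at 807, 788 and 785 CPM in PPLG-SA libraries, against 5278, 7324 and 8298 CPM in POx-SA libraries (log2 fold change -3.13 ± 0.21, adjusted p = 1.76e-09). Prdx1, a peroxiredoxin, was at 460.5, 468 and 441 CPM in PPLG-SA libraries, against 3869, 2209 and 3418 CPM in POx-SA libraries (log2 fold change -2.79 ± 0.18, adjusted p = 7.09e-10). Slc7a11, the cystine importer, was at 87.8, 108 and 91.9 CPM in PPLG-SA libraries, against 609.9, 643 and 422 CPM in POx-SA libraries (log2 fold change -2.54 ± 0.19, adjusted p = 7.77e-09). The groups did not overlap, and LPS alone, at 1126 ± 383 CPM of Hmox1, 479 ± 89.5 CPM of Prdx1 and 219.6 ± 72.9 CPM of Slc7a11, lay below POx-SA in each. Blvrb (log2 fold change -2.33 ± 0.16, adjusted p = 1.70e-09), Cat, catalase (log2 fold change -1.90 ± 0.10, adjusted p = 9.14e-11), and Gclm, a subunit of the enzyme that starts glutathione synthesis (log2 fold change -1.53 ± 0.12, adjusted p = 7.82e-09), were lower as well. Nqo1, a quinone reductase that was named after its values were seen, had 0 counts over the PPLG-SA libraries and 90 over the POx-SA libraries, at least 33.9-fold lower.

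Metallothioneins and part of the iron genes were lower. Ftl1, the ferritin light chain, was at 6659, 5844 and 6060.0 CPM in PPLG-SA libraries, against 16828, 26497 and 29681 CPM in POx-SA libraries (log2 fold change -1.98 ± 0.22, adjusted p = 8.54e-07). Slc11a1, the metal transporter of phagosomes, was at 60.0, 59.7 and 59.8 CPM in PPLG-SA libraries, against 355, 251 and 331 CPM in POx-SA libraries (log2 fold change -2.38 ± 0.11, adjusted p = 2.37e-11). The metallothionein gene Mt1 was at 219.7, 195 and 161 CPM in PPLG-SA libraries, against 1549, 2335 and 3047 CPM in POx-SA libraries (log2 fold change -3.59 ± 0.30, adjusted p = 2.65e-08). These 3 genes did not overlap between groups, and Mt2, a second metal-binding metallothionein, was 11.3-fold lower (log2 fold change -3.50 ± 0.24, adjusted p = 1.52e-09). Mtf1, the metal-sensing factor that drives metallothioneins, was lower too (log2 fold change -0.94 ± 0.10, adjusted p = 6.04e-07). Of iron genes 5 of 14 were higher and 7 lower, and of metallothioneins and zinc transporters 0 of 9 were higher and 4 lower, against 3 higher and 3 lower on FPKM and 2 higher and 3 lower on plain totals.

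Cytosolic heat shock chaperones were lower in 9 of 14 and higher in 2. Their medians against LPS alone were 0.49 in LPS + PPLG-SA and 1.02 in LPS + POx-SA. Hspa1b, an inducible HSP70, was at 4.40, 3.69 and 0.972 CPM in PPLG-SA libraries, against 659, 233 and 343 CPM in POx-SA libraries (log2 fold change -7.11 ± 0.47, adjusted p = 1.25e-09), and its near-identical copy Hspa1a had 2 counts over the PPLG-SA libraries and 482 over the POx-SA libraries, so reads may be split between them. Dnajb1, a co-chaperone, was at 21.7, 16.1 and 16.7 CPM in PPLG-SA libraries, against 101, 51.4 and 93.7 CPM in POx-SA libraries (log2 fold change -2.18 ± 0.19, adjusted p = 5.10e-08). Hsp90ab1, the constitutive HSP90, was at 2651, 2507 and 2808 CPM in PPLG-SA libraries, against 1174, 1129 and 1580.2 CPM in POx-SA libraries (log2 fold change 1.04 ± 0.14, adjusted p = 9.74e-06). The inducible members were thus lower and Hsp90ab1 and the mitochondrial chaperonin gene Hspd1 (log2 fold change 1.07 ± 0.12, adjusted p = 6.22e-07) higher. Genes of the unfolded protein response and of integrated stress signalling were lower in 18 of 30 and higher in 3, or in 2 without POx-SA replicate 1. Atf4, the factor of the integrated stress response, was at 339.9, 303 and 322 CPM in PPLG-SA libraries, against 529, 604 and 699 CPM in POx-SA libraries (log2 fold change -0.93 ± 0.10, adjusted p = 9.27e-07). Syvn1, a ligase of protein degradation at the endoplasmic reticulum (log2 fold change -1.32 ± 0.08, adjusted p = 8.33e-10), the chaperone gene Dnajb9 (log2 fold change -1.73 ± 0.14, adjusted p = 1.21e-08) and Herpud1 (log2 fold change -0.86 ± 0.10, adjusted p = 8.78e-07) were lower. On FPKM 6 members of this list were higher and 11 lower, on plain totals 5 and 13.

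**Figure D5:**
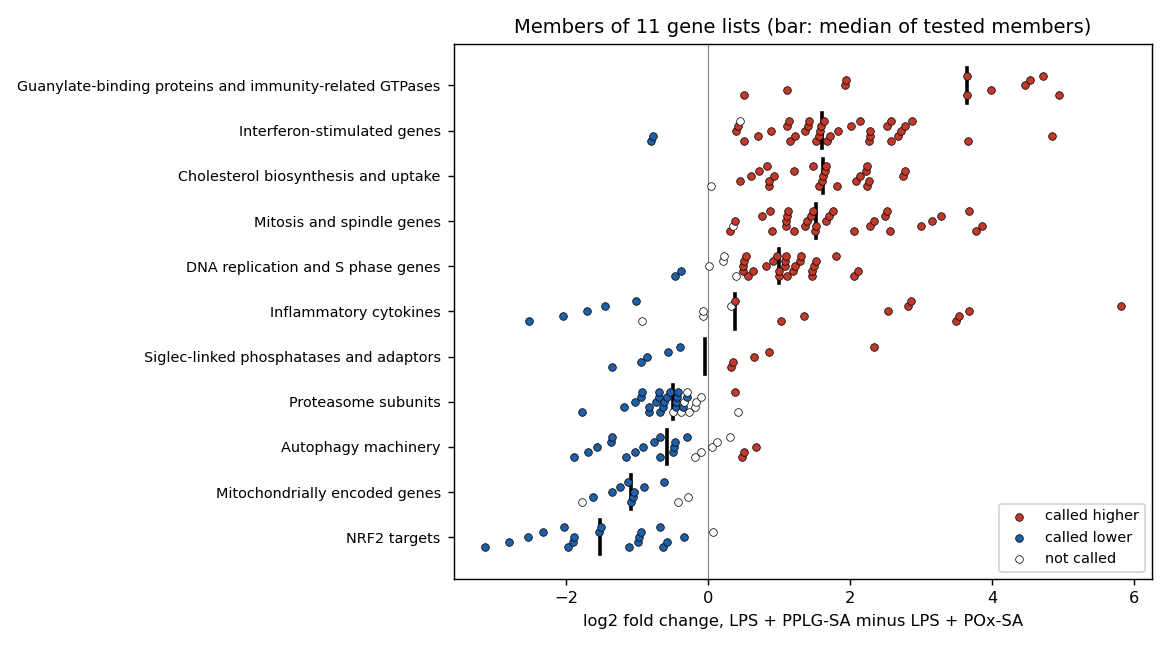
Log2 fold changes, LPS + PPLG-SA minus LPS + POx-SA, of the members of 11 gene lists, 1 point per gene, coloured by call, with a bar at the median of all tested members; 5 of the 255 tested members with at most 3 counts in 1 group are not drawn. Guanylate-binding proteins and immunity-related GTPases have the highest median, 3.64, NRF2 targets the lowest, -1.52, and cytokines spread to both sides.

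Mitochondrially encoded genes were lower in 10 of 13 tested and higher in 0 (median -1.08). Their medians against LPS alone were 0.03 in LPS + PPLG-SA and 1.06 in LPS + POx-SA. CYTB, a subunit of complex III, was at 814, 931 and 812 CPM in PPLG-SA libraries, against 2989, 1644 and 1906 CPM in POx-SA libraries (log2 fold change -1.35 ± 0.18, adjusted p = 5.15e-06). COX3, of complex IV, was at 1599, 1817 and 1774 CPM in PPLG-SA libraries, against 5183, 2586 and 3547 CPM in POx-SA libraries (log2 fold change -1.12 ± 0.18, adjusted p = 4.57e-05). POx-SA replicate 1 had the highest value of both genes, and on FPKM the count of lower members was 6 with a pseudocount of 1 and 5 with 0.1. Nuclear-encoded subunits of the respiratory chain were mostly not called, 1 of 32 higher and 6 lower. That count moved with the libraries, to 13 lower without POx-SA replicate 1, 9 lower without POx-SA replicate 2 and 3 higher without POx-SA replicate 3. The counts were 8 higher and 5 lower on plain totals, and 10 higher and 2 lower with FPKM and a pseudocount of 1.

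Glycolysis and hypoxia genes were lower in 13 of 28 and higher in 5. Pkm, pyruvate kinase, was at 2661, 2579 and 2865 CPM in PPLG-SA libraries, against 6092, 6781 and 9675 CPM in POx-SA libraries (log2 fold change -1.48 ± 0.17, adjusted p = 1.15e-06). Hk3, a hexokinase of myeloid cells, was at 149, 145 and 147 CPM in PPLG-SA libraries, against 366, 378 and 420.4 CPM in POx-SA libraries (log2 fold change -1.40 ± 0.10, adjusted p = 2.06e-09). Bnip3, a hypoxia-induced gene of mitophagy, was 4.60-fold lower (log2 fold change -2.20 ± 0.11, adjusted p = 2.36e-11), and Slc16a3, the lactate exporter, was lower (log2 fold change -1.06 ± 0.13, adjusted p = 2.15e-06). Pdk1, which keeps pyruvate out of the mitochondria, was higher (log2 fold change 1.26 ± 0.15, adjusted p = 1.84e-06). Enzymes of the tricarboxylic acid cycle were higher in 9 of 20 and lower in 2, or in 5 without POx-SA replicate 1. Suclg1 was higher (log2 fold change 0.68 ± 0.11, adjusted p = 7.24e-05) and Sdhd, a subunit of succinate dehydrogenase, lower (log2 fold change -1.33 ± 0.15, adjusted p = 7.49e-07).

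Genes of protein breakdown were mostly lower. Proteasome subunits were lower in 21 of 31 and higher in 1 (median -0.49), with 11 lower on FPKM and 2 higher on FPKM, on plain totals and without POx-SA replicate 3. Their medians against LPS alone were -0.14 in LPS + PPLG-SA and 0.41 in LPS + POx-SA. Psmb5, a catalytic subunit, was at 32.6, 26.8 and 28.1 CPM in PPLG-SA libraries, against 105, 79.2 and 114 CPM in POx-SA libraries (log2 fold change -1.78 ± 0.15, adjusted p = 2.35e-08). Psmd8 (log2 fold change -1.18 ± 0.14, adjusted p = 1.53e-06) and Psmd11 (log2 fold change -0.94 ± 0.10, adjusted p = 6.36e-07), of the regulatory particle, were lower. Autophagy genes were lower in 16 of 24 and higher in 3, or in 5 on plain totals and on FPKM. Their medians against LPS alone were -0.20 in LPS + PPLG-SA and 0.30 in LPS + POx-SA. Sqstm1, the cargo receptor p62, was at 1308, 1115 and 1289 CPM in PPLG-SA libraries, against 3874, 4201 and 5673 CPM in POx-SA libraries (log2 fold change -1.89 ± 0.16, adjusted p = 2.11e-08). Atg7, which activates the ubiquitin-like proteins of autophagy, was at 42.6, 42.2 and 44.4 CPM in PPLG-SA libraries, against 116, 118 and 148 CPM in POx-SA libraries (log2 fold change -1.56 ± 0.11, adjusted p = 3.30e-09), and Gabarapl1 was lower (log2 fold change -1.35 ± 0.14, adjusted p = 3.34e-07). None of the 3 overlapped between groups. Lysosomal proteins were lower in 17 of 31 and higher in 7, with Lipa, the acid lipase, at 130.2, 145 and 138 CPM in PPLG-SA libraries, against 295, 373 and 338 CPM in POx-SA libraries (log2 fold change -1.28 ± 0.10, adjusted p = 5.09e-09). Mitf, a factor of lysosomal genes that is on the same list, was higher (log2 fold change 2.04 ± 0.19, adjusted p = 8.35e-08).

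Genes of protein production were mixed. Ribosome biogenesis and nucleolar genes were higher in 15 of 30 and lower in 5, or in 3 without POx-SA replicate 3, and on plain totals 19 were higher and 1 lower, on FPKM 18 and 1. Ddx21, a nucleolar helicase, was at 414, 443 and 444 CPM in PPLG-SA libraries, against 186, 256 and 230.3 CPM in POx-SA libraries (log2 fold change 0.95 ± 0.11, adjusted p = 1.60e-06), and Ncl, nucleolin, was higher (log2 fold change 0.69 ± 0.12, adjusted p = 1.45e-04). Aminoacyl-tRNA synthetases were higher in 10 of 20 and lower in 4, or in 6 without POx-SA replicate 1 and in 2 on plain totals and on FPKM, with Eprs higher (log2 fold change 0.75 ± 0.11, adjusted p = 1.62e-05) and the interferon-inducible Wars1 lower (log2 fold change -0.90 ± 0.10, adjusted p = 1.13e-06). Amino acid transporters were lower in 10 of 15 and higher in 3. Slc3a2, the heavy chain of several of them, was at 373, 344 and 379 CPM in PPLG-SA libraries, against 608, 625 and 864 CPM in POx-SA libraries (log2 fold change -0.94 ± 0.14, adjusted p = 2.05e-05). Slc7a8, a light chain, went the other way, at 44.0, 39.9 and 37.6 CPM in PPLG-SA libraries, against 6.98, 6.42 and 6.63 CPM in POx-SA libraries (log2 fold change 2.60 ± 0.11, adjusted p = 6.48e-12). Cytosolic ribosomal proteins were mostly not called, with 4 of 35 higher and 5 lower. Many have processed copies in the genome, and their counts moved to 12 lower without POx-SA replicate 1, to 9 higher and 3 lower without POx-SA replicate 3, to 2 higher without PPLG-SA replicate 1 or 3 and to 3 lower without PPLG-SA replicate 2 or 3. On plain totals 9 were higher and 3 lower, and on FPKM 11 and 1.

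The cells kept macrophage transcripts in both groups, but macrophage markers differed, 3 of 15 higher and 9 lower. Their summed level was 5384 to 5607 CPM in PPLG-SA libraries and 6993 to 8486 CPM in POx-SA libraries. Adgre1, the F4/80 antigen, was at 559, 588 and 608 CPM in PPLG-SA libraries, against 26.3, 36.9 and 35.8 CPM in POx-SA libraries (log2 fold change 4.15 ± 0.12, adjusted p = 1.06e-13). Lyz1, a lysozyme with the close copy Lyz2, was at 20.2, 17.8 and 24.5 CPM in PPLG-SA libraries, against 292, 533 and 506 CPM in POx-SA libraries (log2 fold change -4.41 ± 0.20, adjusted p = 1.45e-11). The F4/80 gene was 17.7-fold higher while Lyz1 was 21.3-fold lower. Cebpb, a myeloid factor that LPS induces, was at 60.9, 54.6 and 59.6 CPM in PPLG-SA libraries, against 435, 397 and 324 CPM in POx-SA libraries (log2 fold change -2.72 ± 0.16, adjusted p = 2.13e-10).

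Osteoclast genes, of a fate that RAW264.7 cells can take, were 7 higher and 3 lower of 11 tested. Without POx-SA replicate 3 they were 5 higher and 3 lower, and against a fold of 1.5, 2 higher and 3 lower. Among the higher ones, Ocstamp had only 7 counts over the PPLG-SA libraries and 0 over the POx-SA libraries. Dcstamp, of cell fusion, was at 60.3, 60.7 and 60.7 CPM in PPLG-SA libraries, against 29.8, 13.0 and 16.7 CPM in POx-SA libraries (log2 fold change 1.61 ± 0.21, adjusted p = 4.12e-06). Nfatc1, the factor of this fate, was higher (log2 fold change 0.74 ± 0.12, adjusted p = 4.63e-05), and Ctsk, its collagen-cutting protease, was lower, at 0.279, 0.453 and 0.243 CPM in PPLG-SA libraries, against 3.12, 3.63 and 5.29 CPM in POx-SA libraries (log2 fold change -3.60 ± 0.40, adjusted p = 7.33e-07). Spp1, osteopontin, was at 13575, 12654 and 13236 CPM in PPLG-SA libraries, against 19077, 34101 and 31031 CPM in POx-SA libraries (log2 fold change -1.09 ± 0.18, adjusted p = 4.50e-05), a call that FPKM did not give (adjusted p = 0.0692 with a pseudocount of 1). The members of this list thus did not move as one.

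Markers of other cell types were low in the libraries of the pair. Their sums are on plain library totals. Of 10 dendritic cell markers, 5 passed the filter and were higher, and the summed level of the 10, mostly Cd83, was 95.03 to 103.9 CPM in PPLG-SA libraries and 41.6 to 48.0 CPM in POx-SA libraries, with Siglech at 0. The sum in LPS alone was higher still, at 110.95 to 117.1 CPM. With no filter on low counts, 6 markers were higher and 1 lower. Among those filtered out, Xcr1 had 3 counts over the PPLG-SA libraries and 23 over the POx-SA libraries, Clec9a 0 and 4, and Batf3 10 and 0. Ccr7, the receptor that leads such cells to lymph nodes, was at 3.21, 3.81 and 3.77 CPM in PPLG-SA libraries, against 0.668, 0.0756 and 0.564 CPM in POx-SA libraries (log2 fold change 3.01 ± 0.41, adjusted p = 7.66e-06). Neutrophil and mast cell markers summed to 0 to 0.0742 CPM in PPLG-SA libraries and 32.4 to 63.9 CPM in POx-SA libraries, almost all of it S100a8, and 7 of the 10 were at 0 in the 6 libraries. Both groups lay below LPS alone, at 155.5 to 239.9 CPM, and untreated cells, at 1951 to 2155 CPM. Fibroblast markers summed to 0.693 to 1.67 CPM in PPLG-SA libraries and 3.19 to 7.38 CPM in POx-SA libraries. Lymphocyte markers summed to 0.643 to 1.25 CPM in PPLG-SA libraries and 0.596 to 1.43 CPM in POx-SA libraries. The part of other cells in the results was not tested.

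The largest differences were near all or none. At most 3 counts over the 3 PPLG-SA libraries, and at least 5 CPM in LPS + POx-SA, were found in 18 genes, a rule set after the values were seen. Rasgrf2, a Ras exchange factor, had 0 counts over the PPLG-SA libraries and 724 over the POx-SA libraries, at least 273-fold lower. Nrp1, a receptor of semaphorins and VEGF, had 0 counts over the PPLG-SA libraries and 370 over the POx-SA libraries, at least 139-fold lower. S100a8, a calcium-binding protein of myeloid cells, had 1 count over the PPLG-SA libraries and 2170 over the POx-SA libraries, 2454-fold lower (95% counting interval 440.0 to 96969). Their levels were at or near 0 in every PPLG-SA library, against 14.3, 22.5 and 16.5 CPM, 12.5, 8.01 and 6.70 CPM and 62.4, 35.6 and 60.6 CPM in POx-SA libraries. S100a8 had a mean of 191 CPM in LPS alone and 2492 CPM in untreated cells, above both groups. Magohb, of the exon junction complex, was at least 135-fold lower, Tex101 at least 213-fold lower and Adamts1, a protease of the matrix, 199.6-fold lower (95% counting interval 54.8 to 1655). Asb11 was at least 99.1-fold lower and Ctag2l1 at least 92.7-fold lower, while C1qtnf12 rested mostly on POx-SA replicate 3, with 0.742, 0.680 and 16.5 CPM in POx-SA libraries. Of the 18 genes, 14 had at least 5 CPM in LPS alone too, 8 of them also in untreated cells, and 17 were below 1 CPM in both PPLG-2V-SA and PPLG-4V-SA.

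In the other direction 6 genes had at most 3 counts over the POx-SA libraries and at least 5 CPM in LPS + PPLG-SA. Maf, a factor known to drive Il10 in macrophages, had 969 counts over the PPLG-SA libraries and 1 over the POx-SA libraries, 857-fold higher (95% counting interval 153 to 33879.7). Runx3, a factor of lymphoid and myeloid cells, had 620 counts over the PPLG-SA libraries and 3 over the POx-SA libraries, 183-fold higher (95% counting interval 62.2 to 889). Lipg, endothelial lipase, was 735-fold higher (95% counting interval 203 to 6073), Atrnl1 was 255-fold higher (95% counting interval 86.9 to 1237), Tnc, the matrix protein tenascin-C, was 205-fold higher (95% counting interval 69.9 to 997) and Parp8, a PARP-family protein, was 136-fold higher (95% counting interval 46.4 to 664). Baiap2l1, an organiser of membrane and actin, had counts in every library, at 656, 638 and 629 CPM in PPLG-SA libraries, against 0.445, 0.529 and 0.141 CPM in POx-SA libraries (log2 fold change 10.74 ± 0.24, adjusted p = 1.19e-15). Xk was at 6.29, 7.18 and 7.23 CPM in PPLG-SA libraries, against 0.0742, 0 and 0.212 CPM in POx-SA libraries (log2 fold change 6.03 ± 0.42, adjusted p = 2.68e-09). Of the 6 genes, 4 had at least 5 CPM in both PPLG-2V-SA and PPLG-4V-SA, and 4 were below 1 CPM in both LPS alone and untreated cells. The labels give no day, passage or batch, so differences between the polymers and differences between cultures of the 2 groups cannot be told apart. Intervals and bounds cover counting error only.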

How the data were processed

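Total RNA of 18 RAW264.7 samples was sequenced, and the 6 libraries of LPS + PPLG-SA and LPS + POx-SA were compared. Raw read counts per gene and FPKM values were deposited as 2 tables, of 35510 and 22384 genes, and the submitters' processing notes name the build GRCm39 and the tool CASAVA. For the aligner, counter, annotation and strandedness, the choice was not given in the sources used here. FPKM are the authors' deposited values, scaled by depth and length in steps that no label or header records. Gene names are those of the count table. The counts were fitted for all 18 libraries with 1 term per group by edgeR 4.0.16 in R 4.3.3, with TMM scaling and the quasi-likelihood F test. Genes passed filterByExpr with a minimum count of 10 and a minimum total of 15. Adjusted p-values are Benjamini-Hochberg over all 13482 genes, called below 0.05. An SE is the size of the log2 fold change divided by the square root of F. Ratios with 1 to 3 counts in 1 group carry exact 95% counting intervals, and bounds use 3 counts over a group. The 56 gene lists held 994 genes, of which 990 were in the table and 889 were tested. The comparison, members and lists were chosen with earlier results of these data known. Named genes were the 12 largest and 12 smallest called, non-overlapping log2 fold changes with at least 5 CPM in the higher group, a panel of 24, and up to 6 called members of each list by p (where none was called, its 2 most abundant). Lists with fewer than 12 tested members could be named whole. Alternatives used limma 3.58.1 and DESeq2 1.42.0. The fit was tested on simulated counts, in which every group had the same spread and few genes were changed. The simulation therefore does not cover the wider spread of POx-SA libraries or changes in most genes. Same-numbered replicates of the 2 groups did not deviate together beyond a correlation of 0.1, so the main fit did not pair them. With so few libraries a group, this cannot show that pairing is absent. Some genes are not reported here.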

Additional observations from a re-analysis of the deposited data

How the results depend on the processing

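Over 19 alternatives, the counts of higher and lower genes stayed within 1.5 times the values of 3810 and 3972, apart from a test against a fold of 1.5, which by its stricter null called 1735 higher and 1835 lower. Leaving out 1 replicate gave 3459 to 3675 higher and 3485 to 4298 lower genes. DESeq2's Wald test gave 3772 higher and 4155 lower, voom with sample quality weights 3065 and 3306, and a fit of the 6 libraries alone 2947 and 3021. A replicate block gave 3960 higher and 4013 lower with 18 libraries and 2999 higher and 2886 lower with 6. By the labels, the same-numbered samples share only a number. Their correlations of deviations were -0.08, 0.05 and 0.10, and PPLG-SA replicates 1 and 2 each correlated better with another number. The share of higher among called genes was 49.0%, but 62.9% on plain library totals and 64.5% on FPKM plus 1, and the cause of that shift was not tested. Of 327 called named genes, 250 kept direction and call in every alternative that tested them (a filter can drop a gene), 77 lost the call in at least 1, and 2 turned. On log2 FPKM with a pseudocount of 1 or 0.1, Il4ra was 0.59 or 0.67, Rac2 0.38 under both, Rps27 0.42 under both, Slc30a7 0.31 or 0.32 and Slc39a10 0.47 or 0.51, all below 0 with TMM scaling. The balance of higher and lower members turned in at least 1 alternative for 11 of 56 lists. A planned search of promoters for motifs was not run, since promoter sequences were not used here. Depth limits genes under about 1 CPM, such as Ifnb1, Il12b, Arg1 and Mrc1.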

Other observations

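In 2 genes, chosen after their values were seen, replicate 3 of LPS + POx-SA and replicate 3 of LPS alone stood apart together. The predicted gene Gm42427 was at 1169, 1178 and 1319 CPM in PPLG-SA libraries, 1961, 1951 and 0.353 CPM in POx-SA libraries and 1948, 1858 and 0 CPM in libraries of LPS alone. ND3, a mitochondrially encoded subunit of complex I, was at 0 CPM in each PPLG-SA library, 0, 0 and 78.2 CPM in POx-SA libraries and 0, 0 and 37.7 CPM in libraries of LPS alone. ND3 is among the 18 genes with at most 3 counts over the PPLG-SA libraries, and in it the POx-SA level rests on replicate 3.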
